A study of Homo sapiens with 18 samples.

Results

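The comparison described here is that of Dicer1 siRNA with a negative control siRNA in D11, a TPC1 clone that carries 1 functional copy of Dicer1. Its members are 6 of the 18 sequenced libraries, 3 labelled D11 siDicer and 3 labelled D11 NC, chosen by their library names alone. Cells on both sides were transfected, and the non-transfected D11 cells (NT) and the parental TPC1 line enter only where they are named.

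The series measured polyadenylated RNA in the human papillary thyroid carcinoma line TPC1 and in its Dicer1 (+/-) derivative D11, with 3 libraries in each of 6 groups. All 6 libraries compared here share the heterozygous genotype, so the control cells already lack 1 intact allele, and D11 is a single clone obtained by CRISPR-Cas9. The D11 NC cells received 5 nM of a negative control siRNA and the D11 siDicer cells 5 nM of an siRNA against Dicer1, both with Lipofectamine RNAiMAX, and RNA was collected on day 4. The methods describe the experiments in general as independently repeated, without saying how the replicate libraries were obtained, so p-values measure the spread between these libraries, which may be technical.

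The sample titles and the sample descriptions name different groups for 4 of these 6 libraries. Groups were taken from the descriptions, which carry the library names, and DICER1 followed them in 6 of 6 libraries. With groups from the titles limma called 0 genes, and 104 higher and 589 lower genes had an unadjusted p under 0.05.

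Dicer1 is the cytoplasmic ribonuclease that cuts hairpin precursors into mature miRNAs. A mature miRNA guides an Argonaute protein to messenger RNAs, mostly through its seed, the bases at positions 2 to 8 from the 5′ end, which pair with complementary stretches of the 3′ untranslated region (UTR) and lower translation and messenger stability. In thyroid carcinoma cells miR-221, miR-222, miR-21 and miR-146b are known for high levels, and let-7 is known for restraining growth regulators such as HMGA2. Mature miRNAs were not measured in these libraries.

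The sequences below are the mature forms of 6 miRNAs whose target lists or seed matches are described further on, from RefSeq on GRCh38.p14, with the seed in capitals. The seed of let-7a is that of 11 mature entries of the table, let-7a included, and miR-221 shares its seed with miR-222.
hsa-let-7a-5p (chr9:94175962-94175983, + strand): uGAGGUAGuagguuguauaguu
hsa-miR-21-5p (chr17:59841273-59841294, + strand): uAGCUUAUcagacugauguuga
hsa-miR-221-3p (chrX:45746180-45746202, - strand): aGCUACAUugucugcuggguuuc
hsa-miR-29a-3p (chr7:130876748-130876769, - strand): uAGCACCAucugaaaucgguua
hsa-miR-200b-3p (chr1:1167160-1167181, + strand): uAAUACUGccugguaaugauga
hsa-miR-22-3p (chr17:1713914-1713935, - strand): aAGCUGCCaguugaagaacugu

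The next sequences are the first seed match in the 3′ UTR of 11 genes that were called higher after Dicer1 siRNA, each 29 bases long in messenger orientation on GRCh38, with the match in capitals. They are shown because these genes carry the target results below. A match describes the letters of the UTR and not a measured binding site.
HMGA2, let-7 site (chr12:65963302-65963330, + strand): acgttcgatttCTACCTCagcagcagttg
IGF2BP3, let-7 site (chr7:23311785-23311813, - strand): tttttactcaaCTACCTCaggtattcagt
FIGN, let-7 site (chr2:163608133-163608161, - strand): ctgctttatttCTACCTCagttttgttac
NR6A1, let-7 site (chr9:124522300-124522328, - strand): gacaaagatgaCTACCTCaatggaaatgg
RHOB, miR-21 site (chr2:20449371-20449399, + strand): ataaaagttctATAAGCTgtgtatacagt
CDKN1C, miR-221 site (chr11:2883818-2883846, - strand): tgggaccgttcATGTAGCagcaaccggcg
BBC3, miR-221 site (chr19:47221689-47221717, - strand): ttctctgcaccATGTAGCatactggactc
COL5A1, miR-29 site (chr9:134843331-134843359, + strand): tcaatgaaaatTGGTGCTtattttttaca
COL4A1, miR-29 site (chr13:110150316-110150344, - strand): atgtcacaacaTGGTGCTacttcttcttc
SPARC, miR-29 site (chr5:151661367-151661395, - strand): attggcccattTGGTGCTggccatttgag
ZEB2, miR-200bc site (chr2:144389042-144389070, - strand): ctaccatacatCAGTATTtttattattat

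Values are normalised read counts, the reads of a gene scaled by the authors to a common library total. The depth behind the 6 libraries was 11560313 to 16803802 reads, 1 read was worth 1.19021 to 1.73006 units, and 25638 to 26354 genes were above 0. Of the thyroid markers, PAX8, a thyroid transcription factor, lay at 7523 to 11128 and TG, thyroglobulin, at 54 to 114, while TSHR and NKX2-1 were at 0 in all 6 libraries and SLC5A5 reached at most 2. The keratins KRT8 and KRT18 were high (3645 to 11569), whereas KRT19 and EPCAM stayed at or under 4. Of 14 markers of blood cells, 11 stayed under 10 in all 6 libraries, with PTPRC at most 4, CD3E 0 and HBB 2, but CD68, a lysosomal protein, read 769 to 979. The sum of the list was 793 to 924 in D11 NC and 867 to 1015 in D11 siDicer. Of 14 markers of endothelium and stroma, 8 stayed under 10, with PECAM1 at most 6 and DCN 0, but ACTA2 read 284 to 382, RGS5 182 to 372 and COL1A1 77 to 125. Their sum was higher in D11 siDicer (813 to 963) than in D11 NC (621 to 741), and PDGFRB was the member called higher. LUM, a stromal proteoglycan, read 2, 0 and 0 in D11 NC and 26, 2 and 14 in D11 siDicer. The share of mitochondrial transcripts was 2.87% to 3.07% in D11 NC and 2.98% to 3.22% in D11 siDicer, and the part of these values in the results was not tested.

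DICER1 (ENSG00000100697, chromosome 14, 95086228 to 95158010, minus strand, GRCh38), the targeted gene, read 1536, 1433 and 1407 in the NC libraries and 297, 451 and 277 in the siDicer libraries. The groups did not overlap, and siDicer replicate 2 kept the most DICER1. The mean fell from 1459 ± 68.2 to 342 ± 95.2 (SD, n = 3 each), which left 23.4% of the NC level, a log2 change of -2.12 (SE 0.17, adjusted p = 0.000345). The NT libraries of the same clone read 655, 1157 and 923, below all 3 NC libraries, so that the change against NT was smaller (log2 -1.41, adjusted p = 0.00287).

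**Figure D1:**
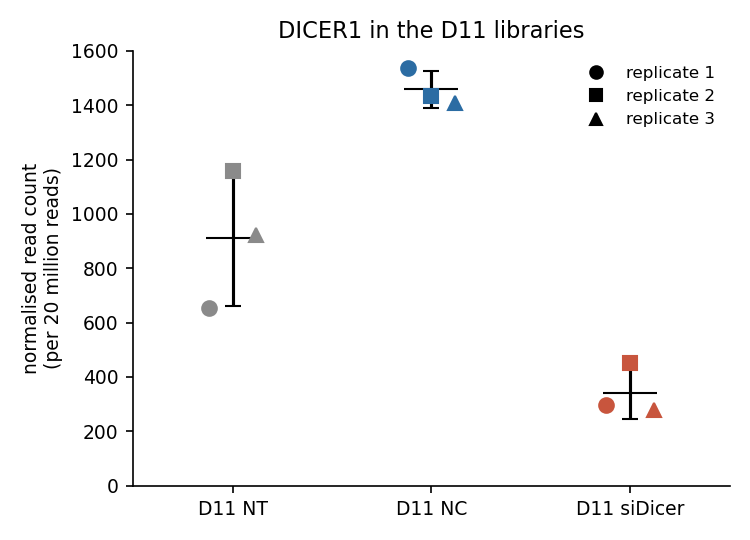
DICER1 in each D11 library as a normalised read count (vertical axis, linear) for NT, NC and siDicer. Horizontal bars are means of 3 libraries and whiskers are SD. The siDicer libraries sit between 277 and 451, below the NC libraries (1407 to 1536) and the NT libraries (655 to 1157).

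Among 17887 genes tested, 703 were called higher (3.93%) and 882 lower (4.93%) in D11 siDicer than in D11 NC, which together is 8.86% of the genes tested. A call needed an adjusted p under 0.05 together with a change of 1.5-fold or more. A change of at least 2-fold was met by 211 of the higher and 308 of the lower calls, and a change of at least 4-fold by 32 and 11. The groups did not overlap for 1573 of the 1585 calls, while over all genes tested the siDicer libraries lay wholly above NC for 15.3% and wholly below for 20.3%. Leaving out siDicer replicate 3 lowered the counts to 425 and 405, and leaving out NC replicate 3 lowered the second to 558. Scaling by the median of ratios turned the split to 837 higher and 718 lower, and moved the median log2 change of all genes from -0.047 to -0.003. A fit with the replicate number as a block called 904 genes higher (5.05%) and 1257 lower (7.03%). Against the NT libraries of the same clone, 1518 genes were called higher (8.52%) and 1537 lower (8.63%).

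Of 16 tested genes of the biogenesis list, DICER1 was the only call. DROSHA, which with DGCR8 makes the precursor hairpins in the nucleus, had a log2 change of -0.16 (adjusted p = 0.301) and DGCR8 of 0.006. XPO5, the exporter of precursors, had a log2 change of -0.016, and TARBP2, a partner of Dicer1, went from a mean of 538 to 617 (adjusted p = 0.236). RAN, the GTPase that XPO5 uses, was lower by less than the fold threshold (11782, 10158 and 11259 against 9574, 8860 and 8070, adjusted p = 0.0361). Among 24 genes of the silencing complex and of mRNA decay, 1 was called, and with the replicate block also AGO4, an Argonaute protein, as lower (-0.62, adjusted p = 0.0591 without and 0.000605 with the block). DCP2, the decapping enzyme, read 1155, 1016 and 1106 in NC and 1890, 1492 and 1838 in siDicer (log2 0.67, SE 0.11, adjusted p = 0.00475). Of 20 tested miRNA host transcripts, MIR31HG was lower (37, 54 and 40 against 16, 28 and 22, adjusted p = 0.0447), a call that stood in only 1 of the 6 fits that leave out a library (adjusted p 0.0628 to 0.123 in the other 5). With the block MIR646HG was called higher as well (1.03, adjusted p = 0.132 without and 0.00183 with it).

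The largest rise among calls with a mean of at least 100 in a group was that of AL356234.2, a long noncoding RNA on chromosome 6. It read 18, 4 and 11 in NC and 163, 94 and 100 in siDicer, a log2 change of 3.48 (SE 0.45, adjusted p = 0.00166). SYP, synaptophysin, a membrane protein of synaptic vesicles, went from 24, 33 and 37 to 274, 233 and 292 (log2 3.06, SE 0.20, adjusted p = 0.00028), with libraries that lay close together within each group. CELSR3, an atypical cadherin, was as even, with a mean of 43.3 ± 5.86 in NC and 211 ± 11.6 in siDicer (SD, n = 3 each, log2 2.27, SE 0.17, adjusted p = 0.000335). F2RL1, a receptor activated by proteases, rose from 41, 25 and 44 to 307, 152 and 280. INHBA, the subunit of activin A, rose from a mean of 74.7 ± 34.9 to 369 ± 75.9 (SD, n = 3 each). TRIM67, a tripartite motif protein, read 160, 30 and 89 in NC and 659, 419 and 486 in siDicer, with NC replicate 2 the lowest. NTM, a neuronal adhesion protein, rose by 2.36 on the log2 scale. COL6A5, a collagen chain, and IL32, a cytokine, had large changes (log2 3.17 and 2.30) on widely spread libraries: COL6A5 read 244 in siDicer replicate 1 but 43 and 40 in the others, and IL32 read 93 in siDicer replicate 2 against 88 in NC replicate 1. Both calls were lost without NC replicate 2, NC replicate 3, siDicer replicate 1 or siDicer replicate 3, with adjusted p of 0.0607 to 0.105 for COL6A5 and 0.0592 to 0.0893 for IL32.

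The largest fall by the same rule was that of CXCL8, interleukin 8, a chemokine that attracts neutrophils, which read 353, 141 and 139 in NC and 68, 25 and 21 in siDicer (log2 -2.49, SE 0.46, adjusted p = 0.00725). Replicate 1 was the highest in both groups. PHEX, a membrane endopeptidase, fell from 89, 148 and 82 to 21, 27 and 20, and TSPAN1, a tetraspanin, from 229, 334 and 254 to 50, 74 and 66 (log2 -2.09, SE 0.20, adjusted p = 0.000597). ERLIN2, a protein of endoplasmic reticulum rafts, combined a high level with even libraries, at 1603, 1225 and 1623 in NC and 480, 457 and 438 in siDicer (log2 -1.68, SE 0.12, adjusted p = 0.000318). TVP23B, a Golgi membrane protein, and the noncoding LACTB2-AS1 fell to 31.5% and 28.8% of NC. SCEL, sciellin, fell from 201, 96 and 102 to 49, 49 and 21, but its NT libraries, at 67, 49 and 30, were as low as siDicer. TPD52 fell from 429, 355 and 202 to 166, 78 and 60, a call lost without siDicer replicate 3 (log2 -1.45, adjusted p = 0.0564). RFX8 had a log2 change of -1.95, and its call was lost without NC replicate 2 or siDicer replicate 3 (adjusted p 0.0517 and 0.0896).

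**Figure D2:**
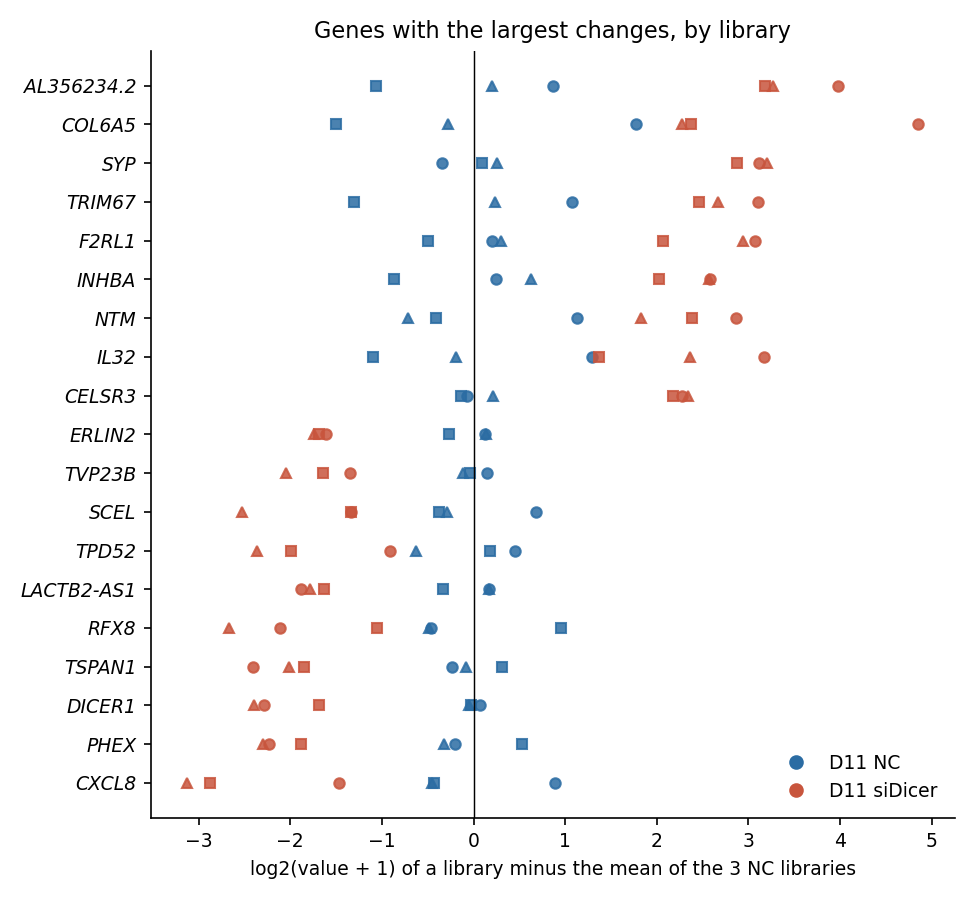
Each library's log2(value + 1) minus the mean of the 3 NC libraries (horizontal axis) for 19 of the 20 genes that rose or fell most, DICER1 among them, with circles, squares and triangles for replicates 1, 2 and 3. The siDicer points lie outside the NC points for each gene, by a narrow margin for IL32 and by over 2 log2 units for SYP, and NC replicate 2 is the lowest NC point for AL356234.2, COL6A5 and TRIM67.

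Targets of miRNA families, whose levels were not measured here, were described next, by lists of genes known as targets of a family. These lists, like the other gene lists here, were written with earlier results of these data known. Their shares describe the members and are not independent support for an effect on the family. Of 26 tested let-7 targets, 5 were called higher and 1 lower, which is 19.2% and 3.8% beside 3.93% and 4.93% of all genes, with a list median of 0.23 on the log2 scale beside -0.047 for all genes. The block added HMGA1 to those lower (-0.64, adjusted p = 0.058 without and 6.86e-06 with it). HMGA2, an architectural chromatin protein and a classic let-7 target, read 4724, 4118 and 4175 in NC and 7759, 6475 and 6397 in siDicer. Its groups were well apart (log2 0.66, SE 0.099, adjusted p = 0.00288), but the change fell to 0.57, under the fold threshold, without siDicer replicate 1. IGF2BP3, an oncofetal RNA binding protein, rose from 2292, 2217 and 2273 to 3988, 3463 and 3739 (log2 0.72, SE 0.083, adjusted p = 0.00102). FIGN, a microtubule severing ATPase, rose from 1720, 1784 and 1448 to 2716, 2905 and 2613. The nuclear receptor NR6A1 and the transcription factor HIC2 rose by 1.26 and 1.13 on the log2 scale. RDH10, a retinol dehydrogenase, was the list member called lower, at 3392, 5708 and 4542 in NC and 1476, 2710 and 1579 in siDicer (adjusted p = 0.00741). LIN28B, an inhibitor of let-7 maturation, was at 0 throughout. The 5 higher members have a let-7 seed match in the 3′ UTR, as do 23 of the 26 tested.

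The list for miR-221 and miR-222 had the largest median of the miRNA lists, 0.58, with 6 of 13 tested members called higher (46.2% beside 3.93% of all genes) and 0 lower. A seed match is present in 9 of the 13 and in 5 of the 6 called higher, TIMP2 being without one. CDKN1C, the cyclin dependent kinase inhibitor p57, read 172, 115 and 227 in NC and 367, 475 and 657 in siDicer (log2 1.55, SE 0.26, adjusted p = 0.00497). The BH3-only proteins BMF and BBC3 (PUMA), which promote apoptosis, were both higher: BMF read 14, 16 and 6 against 91, 39 and 71, and BBC3 218, 244 and 210 against 351, 375 and 422 (log2 0.77, SE 0.13, adjusted p = 0.00469). TIMP2, an inhibitor of matrix metalloproteinases, read 6647, 6595 and 8817 against 12139, 14174 and 16529. RECK, a membrane inhibitor of the same proteases, rose by 0.71 on the log2 scale, and its call was lost without siDicer replicate 3 (0.61, adjusted p = 0.0807). TRPS1, a GATA-type repressor, rose by 0.76. CDKN1B, p27, the best known target of this family, read 1012, 1084 and 1218 in NC and 1336, 1459 and 1541 in siDicer, with an adjusted p of 0.0296 but a log2 change of 0.39, short of the fold threshold.

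Of 19 tested miR-21 targets, 4 were called higher (21.1% beside 3.93% of all genes) and 0 lower (median 0.32). A seed match is present in 15 of the 19 and in 3 of the 4 called higher, TPM1 being without one. RHOB, a small GTPase, rose from 973, 846 and 1331 to 2577, 2923 and 3759 (log2 1.56, SE 0.18, adjusted p = 0.000988). TPM1, tropomyosin 1, rose from 7865, 5118 and 7929 to 15452, 11421 and 13933, and SMAD7, an inhibitor of TGF-beta signalling, had a log2 change of 1.20 on scattered libraries, a call lost without NC replicate 3, siDicer replicate 1 or siDicer replicate 3 (adjusted p 0.081 to 0.114). RECK is in this list too.

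The miR-29 family is known for targeting collagens and other matrix genes, and 4 of 17 tested members of its list were called higher (23.5% beside 3.93% of all genes) with 0 lower (median 0.36), and all 17 hold a seed match. COL5A1 read 787, 776 and 636 in NC and 1699, 1826 and 1938 in siDicer (log2 1.32, SE 0.11, adjusted p = 0.000411). COL4A1, a basement membrane collagen, rose from 6420, 4371 and 5618 to 12523, 8510 and 11506, and FBN1, fibrillin 1, by 0.62 on the log2 scale, which dropped to 0.51 without NC replicate 3. SPARC, a secreted matrix protein, was among the most abundant risers, at 18114, 16029 and 21231 against 40911, 32975 and 42732 (log2 1.08, SE 0.12, adjusted p = 0.00103). The NT libraries lay lower still for SPARC (mean 11232) and COL5A1 (mean 422).

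The lists for miR-17 and miR-200 had shares of 5.0% and 11.8% called higher, beside 3.93% of all genes. The shares called lower were 10.0% and 0.0%, beside 4.93% of all genes. A seed match is present in 20 of 20 and 9 of 17 members. Of 20 tested miR-17 targets, TXNIP was called higher, in only 2 of 6 fits that leave out a library (adjusted p 0.0619 to 0.119 in the other 4), and MAP3K5, a stress kinase, and SQSTM1, an autophagy receptor, lower. MAP3K5 fell from 1037, 1203 and 980 to 366, 559 and 350 (log2 -1.36, SE 0.17, adjusted p = 0.00157). Of 17 tested members of the miR-200 and epithelial-mesenchymal list, ZEB2, a repressor of epithelial genes, rose from 369, 539 and 479 to 836, 1021 and 1110 (log2 1.10, adjusted p = 0.00233). SNAI2 rose by 0.86, a call kept in only 1 of 6 fits that leave out a library (adjusted p 0.0272 to 0.11 in the other 5, the first with a log2 change of 0.55). CDH2, N-cadherin, and FN1, fibronectin, had adjusted p of 0.00492 and 0.00509 with a log2 change of 0.54 each, just under the fold threshold. The block called 1 member lower, OCLN, occludin (-0.89, adjusted p = 0.125 without and 0.0328 with it).

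The seed match was then described over the genome. For 13043 of 13106 tested protein-coding genes a 3′ UTR could be taken from the annotation, and the genes were divided by its length into 4 classes of nearly equal number. In the class with the shortest 3′ UTRs (3 to 505 bases) the median log2 change was -0.13, with 2.05% called higher and 6.07% lower. In the class with the longest (2736 to 32873 bases) it was 0.012, with 6.59% called higher and 5.15% lower. The classes between gave -0.054 and -0.004. The median went up from class to class in each of the 3 replicate pairs, and also in the parental TPC1 (-0.095 in the shortest and 0.01 in the longest class). Against the D11 NT libraries the class medians were -0.223, -0.07, 0.049 and 0.127, a wider span than against NC. The part of the control transfection in the pattern was not tested. The level in NC also rose with UTR length, from a median of 464 to 787, and its part in the pattern was not tested.

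**Figure D3:**
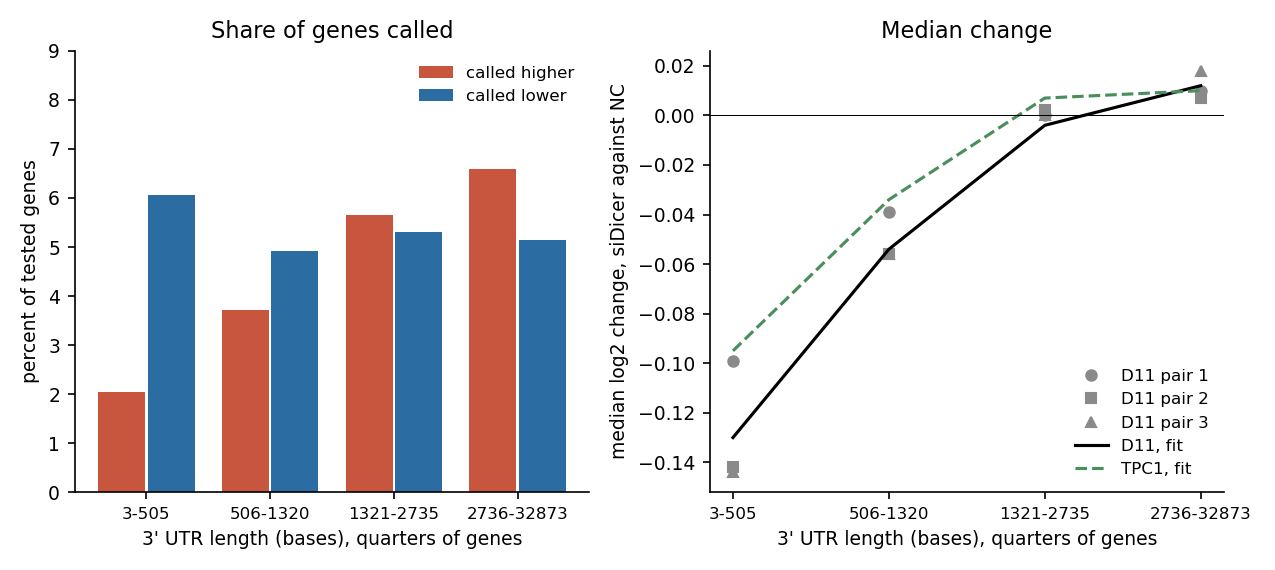
Tested protein-coding genes in 4 classes of 3′ UTR length (horizontal axis, bases). The left panel gives the percent called higher and lower in D11, and the right panel the median log2 change of siDicer against NC in the D11 fit (solid line), in each D11 replicate pair (grey symbols) and in the TPC1 fit (dashed line). The share called higher goes from 2.05% to 6.59%, while the share called lower stays between 4.91% and 6.07%.

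Genes with a seed match had higher medians than genes without for each of 30 miRNA families searched, by 0.024 to 0.095. The largest difference was that of miR-22 (0.033 with a match, -0.062 without). Families known from other tissues lay in the same range, from 0.055 for miR-1 and miR-375 to 0.073 for miR-9 and miR-122. Within classes of UTR length the differences came to a mean of 0.064 for miR-22, 0.042 for miR-29, 0.028 for let-7, 0.018 for miR-221 and 0.001 for miR-21. They were below 0 for 8 of the 30 families, down to -0.030 for miR-26 and -0.076 for miR-100. The value of miR-100 includes a shortest class with only 2 genes that hold a match (-0.338). The other-tissue families miR-375 (0.055) and miR-9 (0.046) were above let-7, miR-29 and miR-221 here. For let-7 the difference was 0.107 in the shortest class and 0.010, -0.008 and 0.004 in the others. For miR-221 it was above 0 in 1 class only, that of 506 to 1320 bases (0.086). With NT as the control, over all UTR lengths, the differences were larger, from 0.106 for miR-26 to 0.187 for miR-29. These are descriptions, since no test was made over genes, and genes with matches to several families are counted under each.

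The cell cycle lists moved down. Of 62 tested genes of G2 and mitosis, 35 were called lower and 0 higher, which is 56.5% beside 4.93% of all genes, and all 62 had a log2 change below 0 (median -0.69). CCNB1, cyclin B1, read 5394, 4871 and 4898 in NC and 2744, 2971 and 2331 in siDicer (log2 -0.92, SE 0.10, adjusted p = 0.000901). CDC20, an activator of the anaphase promoting complex, fell from 5602, 5372 and 5437 to 2797, 3340 and 2664. AURKA, a spindle pole kinase, fell from 3283, 2973 and 2999 to 1393, 1691 and 1353 (log2 -1.07, SE 0.10, adjusted p = 0.000597). The largest change of the list was that of MAD2L1, the spindle checkpoint protein MAD2, at 2068, 2061 and 1961 in NC and 510, 977 and 541 in siDicer (log2 -1.65, SE 0.21, adjusted p = 0.0015). ANLN, anillin, which acts in the cleavage furrow, fell to 41.4% of NC. In each of these genes siDicer replicate 2 was the least changed library. The same library kept the most DICER1, but this is 1 library, and its replicate number is shared with an NC library. The remaining DICER1 and the replicate cannot be told apart, and a link was not tested. The median of the list was -0.84, -0.45 and -0.70 in replicate pairs 1, 2 and 3, and 51 members were called lower without siDicer replicate 2, but 26 without siDicer replicate 3. Some of these genes, such as NUSAP1 (86.8% of its exon bases), share exon bases with a neighbour on which reads could also be counted, so their values are uncertain.

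Genes of DNA replication followed with smaller changes: 10 of 45 were called lower (22.2% beside 4.93% of all genes) and 0 higher. Their median was -0.51, and all 45 were below 0. RRM2, a ribonucleotide reductase subunit, read 6659, 6400 and 6341 in NC and 2918, 4748 and 3001 in siDicer (log2 -0.90, SE 0.16, adjusted p = 0.00639). TK1, thymidine kinase, fell from 1708, 1943 and 1982 to 861, 1335 and 1026. MCM6, a subunit of the replicative helicase, fell from 2511, 2417 and 2556 to 1265, 2036 and 1482 (adjusted p = 0.0157), a call lost without NC replicate 3, siDicer replicate 1 or siDicer replicate 3 (log2 -0.66, -0.52 and -0.64). This count depended on single libraries more than that of mitosis: it was 28 without siDicer replicate 2, 2 without siDicer replicate 3, 4 without siDicer replicate 1, 6 without NC replicate 3 and 6 with median of ratios scaling. The pair medians were -0.72, -0.17 and -0.55. Of 26 genes of homologous recombination, 4 were called lower (15.4% beside 4.93% of all genes), BRCA1, BRCA2 and BLM among them, and 0 higher (median -0.44). BRCA1 fell by 0.78 on the log2 scale, while the calls of BRCA2 and BLM were lost without siDicer replicate 3 (adjusted p 0.0502 and 0.0738) and that of BLM also without NC replicate 3 (0.0556).

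Promoters of the 2 cell cycle lists were compared with all 27305 promoters of the RefSeq table (250 bases before to 50 bases after the start), both strands. The motif TTTGAA, the core of the cell cycle homology region, was present in 73.1% of 52 mitotic promoters, 2.6% of 38 replication promoters and 15.4% of all. CCAAT was present in 75.0%, 60.5% and 35.7% of these sets, and GCGGGAA, an E2F core, was present in 11.5% of the mitotic, 19 of the 38 replication and 6.6% of all promoters. Among the 31 mitotic promoters of called genes TTTGAA was present in 71.0%, close to the share of the whole list. The promoter of CCNB1 holds CCAAT but not TTTGAA. A match describes these letters only. The promoters of CDC20, CCNB2 and ANLN, all lower here, and of RRM2, which holds CCAAT only, are printed with TTTGAA and CCAAT on either strand in capitals (GRCh38.p14).
CDC20 promoter (chr1:43358731-43359030, + strand): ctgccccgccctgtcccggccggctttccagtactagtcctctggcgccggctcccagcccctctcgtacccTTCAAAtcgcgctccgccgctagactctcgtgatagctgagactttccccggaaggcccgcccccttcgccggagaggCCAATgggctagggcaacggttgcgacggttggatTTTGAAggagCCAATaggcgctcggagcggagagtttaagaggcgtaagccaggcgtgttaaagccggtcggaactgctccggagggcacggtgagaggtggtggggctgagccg
CCNB2 promoter (chr15:59104896-59105195, + strand): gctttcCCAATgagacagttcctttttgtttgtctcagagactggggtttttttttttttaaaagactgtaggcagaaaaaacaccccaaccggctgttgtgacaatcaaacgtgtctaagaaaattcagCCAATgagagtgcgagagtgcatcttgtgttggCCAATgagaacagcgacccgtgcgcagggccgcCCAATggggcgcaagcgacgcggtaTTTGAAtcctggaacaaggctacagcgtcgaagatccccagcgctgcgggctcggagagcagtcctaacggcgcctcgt
ANLN promoter (chr7:36389612-36389911, + strand): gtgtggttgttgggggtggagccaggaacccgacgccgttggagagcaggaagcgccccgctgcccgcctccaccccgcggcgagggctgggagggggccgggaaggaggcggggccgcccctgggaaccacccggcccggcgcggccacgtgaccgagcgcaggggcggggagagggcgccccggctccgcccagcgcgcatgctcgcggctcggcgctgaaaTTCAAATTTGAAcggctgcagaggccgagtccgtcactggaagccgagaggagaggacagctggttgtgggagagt
RRM2 promoter (chr2:10122489-10122788, + strand): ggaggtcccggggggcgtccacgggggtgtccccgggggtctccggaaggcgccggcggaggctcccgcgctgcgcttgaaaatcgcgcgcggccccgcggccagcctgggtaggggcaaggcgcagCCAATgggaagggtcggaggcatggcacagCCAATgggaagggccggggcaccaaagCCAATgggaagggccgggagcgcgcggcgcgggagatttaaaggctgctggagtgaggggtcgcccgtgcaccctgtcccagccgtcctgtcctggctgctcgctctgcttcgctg

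Regulators of G1 and of the E2F program had calls in both directions. Among 15 G1 cyclins and inhibitors, CCND1 and CDKN1C were called higher (13.3% beside 3.93% of all genes) and CCNE2 lower (6.7% beside 4.93%). CCND1, cyclin D1, read 9456, 7910 and 10065 in NC and 12889, 14602 and 14850 in siDicer (log2 0.63, SE 0.10, adjusted p = 0.00432). Without NC replicate 2 its change was 0.53, under the fold threshold, and it was not called against NT (0.36). CCNE2, cyclin E2, fell from 1907, 1559 and 1757 to 834, 1302 and 938, a call lost without siDicer replicate 3 (adjusted p = 0.0525), and 37.1% of its exon bases are shared with other genes. CCNE1, cyclin E1, overlapped between the groups, at 246, 134 and 182 against 195, 187 and 153. CDKN1A, p21, had a log2 change of 0.15 (adjusted p = 0.499) and CDKN2A, p16, of -0.069 (adjusted p = 0.853), and both overlapped. Of 20 genes of the E2F and DREAM list, TFDP2 was called higher (5.0% beside 3.93%) and E2F2, E2F8 and FOXM1 lower (15.0% beside 4.93%). E2F2 fell from 336, 473 and 403 to 135, 233 and 181 (log2 -1.16, SE 0.21, adjusted p = 0.00594). FOXM1, a transcription factor of mitotic genes, fell from 3828, 3419 and 3435 to 2147, 2705 and 2046, and its change was -0.56 without siDicer replicate 3. E2F8 lost its call without NC replicate 2, NC replicate 3 or siDicer replicate 3 (adjusted p 0.054 to 0.0845).

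Of 31 tested p53 targets, 6 were called higher and 0 lower, which is 19.4% beside 3.93% of all genes (median 0.15). SESN2, a stress sensor that restrains mTORC1, read 1135, 881 and 1038 in NC and 2856, 1835 and 2346 in siDicer (log2 1.19, SE 0.16, adjusted p = 0.00184). GDF15, a stress cytokine, rose from 795, 763 and 889 to 1339, 1260 and 1493. BBC3, SESN1, FDXR and EDA2R were the others, with log2 changes of 0.59 to 0.82. The call of SESN1 was lost without siDicer replicate 3 (adjusted p = 0.0502), and FDXR and EDA2R fell under the fold threshold without NC replicate 2 (0.50 and 0.52), as did FDXR without siDicer replicate 2 (0.56) and EDA2R without siDicer replicate 1 (0.54). The apoptosis list, with 27 genes tested, had 7.4% called higher and 7.4% lower, beside 3.93% and 4.93% of all genes. BMF and BBC3 were higher, while CYCS, cytochrome c, fell from 4381, 3208 and 3850 to 1299, 1550 and 1168 (log2 -1.51, SE 0.14, adjusted p = 0.000491). CASP6, an effector caspase, fell from 320, 302 and 364 to 138, 166 and 166.

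**Figure D4:**
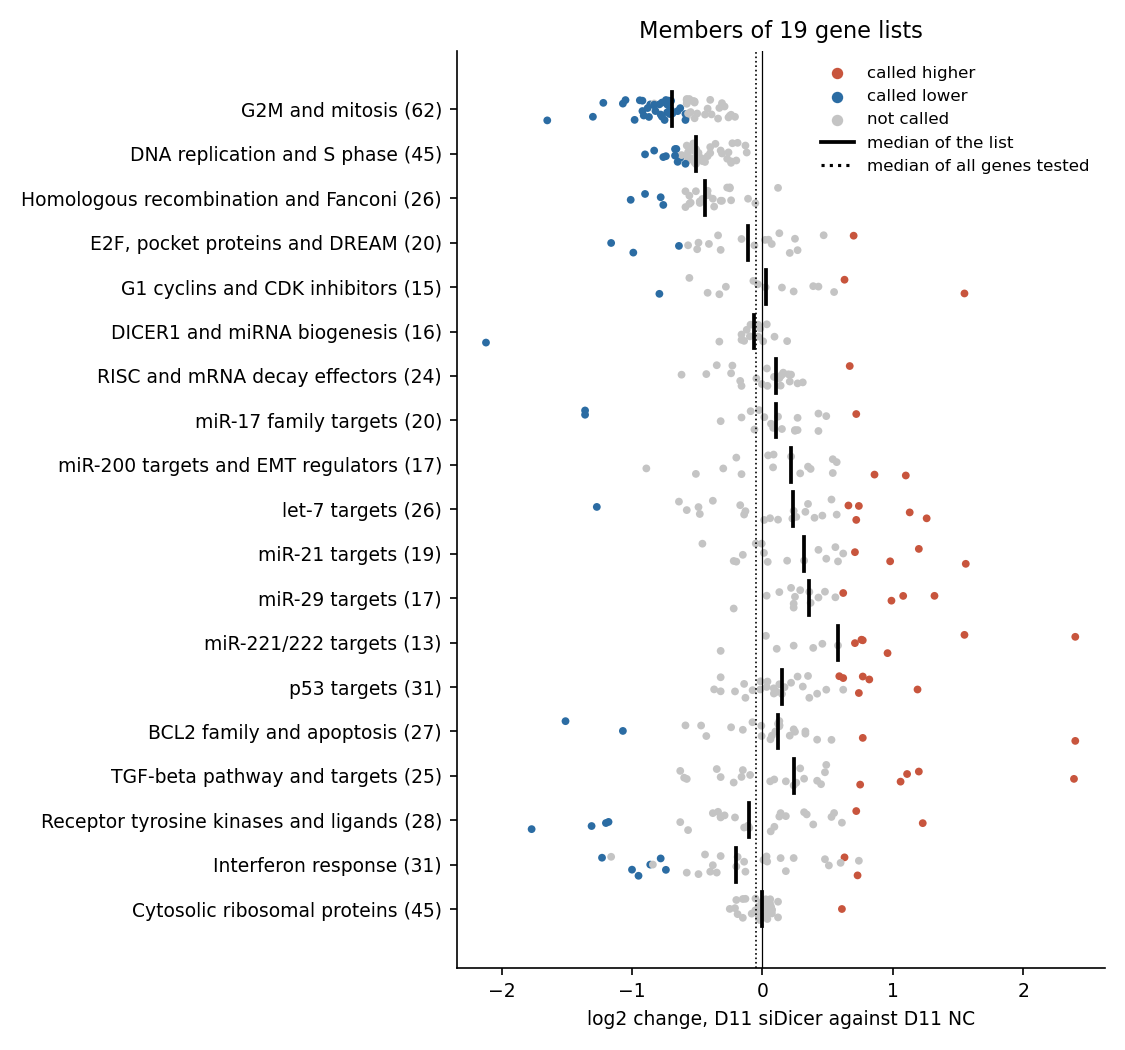
Log2 change of D11 siDicer against D11 NC (horizontal axis) for each tested member of 19 gene lists, with the number tested in parentheses. Red points were called higher, blue points lower and grey points neither, thick bars are list medians and the dotted line is the median of all genes tested (-0.047). The mitotic and replication lists lie wholly below 0, and the miR-221 and miR-222 list has the highest median (0.58).

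Genes of the cell surface and matrix changed in both directions. Of 23 tested metalloproteinases and inhibitors, 5 were called higher (21.7% beside 3.93% of all genes) and 1 lower (4.3% beside 4.93%). MMP2, gelatinase A, read 2592, 1850 and 2316 in NC and 8193, 5374 and 7531 in siDicer (log2 1.63, SE 0.17, adjusted p = 0.00067), and TIMP2, which binds it, rose as given above. ADAM9, a membrane protease, fell from 11353, 11116 and 12456 to 5479, 6592 and 6268 (log2 -0.93, SE 0.091, adjusted p = 0.000597). Among 22 adhesion receptors and laminins, ITGA1 was higher (448, 545 and 440 against 720, 774 and 825) and ITGA6 lower (2497, 2208 and 1837 against 1416, 1256 and 1137). The calls of ITGA2 (lower) and ITGA11 (higher) stood in 2 and 1 of 6 fits that leave out a library, with adjusted p up to 0.149 and 0.151 in the others. In this list 9.1% were called higher and 9.1% lower, beside 3.93% and 4.93% of all genes.

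MYL9, a myosin light chain, rose from 1832, 1220 and 2330 to 4113, 3842 and 5226 (log2 1.33, SE 0.21, adjusted p = 0.0036). VCL, vinculin, a focal adhesion protein, had some of the most even libraries, at 11767, 11806 and 11613 against 18061, 18304 and 19536 (log2 0.67, SE 0.07, adjusted p = 0.000714). The TGF-beta list had 5 of 25 members higher (beside 3.93% of all genes), INHBA first, and 0 lower, or 2 lower with the block (LTBP1 and ID1, adjusted p 0.114 and 0.0781 without it). TGFBR3, betaglycan, rose from 497, 366 and 474 to 895, 886 and 992 (log2 1.06, SE 0.13, adjusted p = 0.00134). In the YAP and TAZ list, 3 of 22 were higher (13.6% beside 3.93% of all genes) and AXL was lower (4.5% beside 4.93%). FJX1, 1 of those higher, went from 754, 611 and 820 to 1419, 1661 and 1786.

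Of 28 receptor tyrosine kinases and ligands, 2 were called higher (7.1% beside 3.93% of all genes) and 4 lower (14.3% beside 4.93%). AXL, a receptor known for its part in invasion, fell from 10791, 8801 and 12289 to 3223, 6106 and 3857 (log2 -1.31, SE 0.21, adjusted p = 0.00382), again with siDicer replicate 2 the least changed. EGFR, the epidermal growth factor receptor, rose from 7970, 8905 and 10454 to 13788, 14740 and 16259 (log2 0.72, SE 0.11, adjusted p = 0.00298). Its ligands AREG and HBEGF fell: AREG read 51, 35 and 34 against 17, 12 and 6, and HBEGF 197, 154 and 135 against 93, 65 and 55 (log2 -1.20, SE 0.23, adjusted p = 0.00817). FGF2 fell from 1473, 1400 and 1818 to 539, 830 and 716. PDGFRB rose from 27, 39 and 42 to 86, 62 and 112, a call lost without siDicer replicate 3 (adjusted p = 0.0792). Among 26 genes known to follow MAPK activity, SPRED1, ETV1, ETV4 and PHLDA1 were called lower (15.4% beside 4.93% of all genes). CCND1, EPHA4 and IL11 were called higher (11.5% beside 3.93%). The calls of ETV4 and PHLDA1 were lost without siDicer replicate 3 (adjusted p 0.0626 and 0.079) and those of EPHA4 and PHLDA1 without NC replicate 2 (log2 0.50 and -0.50), and IL11 kept its call in 1 of 6 such fits (adjusted p 0.0763 to 0.14 in the others). SPRED1, an inhibitor of the pathway, fell from 891, 1049 and 829 to 529, 567 and 487 (adjusted p = 0.00269).

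Of 31 interferon response genes, 6 were called lower (19.4% beside 4.93% of all genes) and 2 higher (6.5% beside 3.93%). With the block these counts were 8 and 4, beside 7.03% lower and 5.05% higher over all genes in that fit. IFI44 read 665, 625 and 505 in NC and 291, 233 and 240 in siDicer (log2 -1.23, SE 0.14, adjusted p = 0.00113). ISG15, a ubiquitin-like modifier, fell from 198, 218 and 220 to 120, 121 and 108. The others called lower were IFIT1, OAS3, OASL and IRF7. IRF7 kept its call in only 1 of the 6 fits that leave out a library (adjusted p 0.0522 to 0.1 in the others), and OAS3 and OASL lost theirs without siDicer replicate 3 (adjusted p 0.0552 and 0.0624). IRF1 and TAP1, the 2 called higher, had log2 changes of 0.63 and 0.73, and kept their calls in 3 and 2 of the 6 fits, both losing them without NC replicate 2 (0.49 and 0.57), siDicer replicate 1 (0.57 and 0.60) or siDicer replicate 3 (adjusted p 0.0892 and 0.0834). Against NT, IFI44, IFIT1 and IRF7 were not called.

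Of 15 tested genes of thyroid follicular identity, 1 was called higher (6.7% beside 3.93% of all genes) and 1 lower (6.7% beside 4.93%). Changes were above 0 for 8 and below 0 for 7 of them, with a median of 0.04. THRB, a thyroid hormone receptor, rose from 526, 461 and 635 to 1398, 1431 and 1481 (log2 1.42, SE 0.12, adjusted p = 0.000411 by limma). PAX8 had a log2 change of 0.045 (adjusted p = 0.877), and its libraries overlapped.

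Among called genes, ranked by difference in level, the largest rises besides SPARC and TIMP2 were FLG, filaggrin, from 38604, 39934 and 44749 to 58248, 65405 and 79500 (log2 0.71, SE 0.11, adjusted p = 0.00402), SLC7A5, an amino acid transporter, from 16795, 16173 and 22903 to 27539, 32991 and 44133, and RPLP0, a ribosomal stalk protein. RPLP0 read 16835, 16327 and 17972 in NC and 27507, 24646 and 25873 in siDicer, but 32027, 25445 and 28704 in NT, so that NC was the group that stood apart and the change against NT was -0.14. Its log2 change of 0.61 fell to 0.58 without NC replicate 2 and 0.57 without siDicer replicate 1, under the fold threshold. The largest falls among called genes were SQSTM1 (23155, 14490 and 19004 against 9817, 5498 and 6974), PTMA, prothymosin alpha (14381, 12734 and 14220 against 5788, 7736 and 5797, log2 -1.11, SE 0.12, adjusted p = 0.000714), ANLN, AXL and MRNIP. SQSTM1 and MRNIP lie on opposite strands and share 22.4% and 22.2% of their exon bases with other genes, so reads of one may be counted for the other.

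The question whether the heterozygous clone answered Dicer1 siRNA otherwise than the parental line was put to the interaction of line and siRNA over 12 libraries. With limma, 0 of 18757 genes differed at an adjusted p under 0.05 (smallest adjusted p = 1), 129 had an unadjusted p under 0.05, and with the replicate block the counts were 0 and 378. The counts of 129 and 378 are below the share of 0.05 of genes that no difference would give, so the fit was conservative. The count of 0 therefore does not show that the lines answered alike. Of the calls in D11, 28 of 1585 had an unadjusted interaction p under 0.05. Of 17923 genes tested in the parental line, 509 rose (2.84%) and 553 fell (3.09%), 5.93% in all. The lines shared 830 calls in the same direction, 52.4% of the calls in D11 and 78.2% of those in TPC1, and the D11 calls had a median log2 change in TPC1 of 0.78 for those higher and -0.74 for those lower. Of the 1569 D11 calls tested in TPC1, 1567 had the same sign there, the exceptions being CFAP58 and C2, which were named after their values were seen.

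DICER1 itself fell by 2.12 on the log2 scale in D11 and by 2.94 in TPC1, from NC means of 1459 and 2253 to siDicer means of 342 and 299 (interaction 0.81, SE 0.28, unadjusted p = 0.0138, adjusted p = 1, by limma). The smallest unadjusted interaction p among genes that fell further in D11 belonged to NMRAL1, a redox sensor protein. It read 49, 42 and 54 in D11 NC and 16, 20 and 25 in D11 siDicer, and in TPC1 it had means of 302 and 252 (interaction -0.97, SE 0.26, unadjusted p = 0.00239, adjusted p = 1). Its fall in D11 was not called without NC replicate 3 (log2 -1.14, adjusted p = 0.062). COL6A3, a collagen chain, fell from 109, 78 and 78 to 35, 36 and 41 in D11 and had means of 53 and 53.7 in TPC1, but its D11 NT libraries were at 27, 32 and 25. The list medians in D11 and TPC1 were -0.69 and -0.59 for mitosis and -0.51 and -0.41 for replication. For targets of miRNAs they were 0.23 and 0.10 (let-7), 0.58 and 0.36 (miR-221), 0.32 and 0.32 (miR-21) and 0.36 and 0.35 (miR-29). The miR-17 list had 0.10 and 0.09, and the miR-200 list 0.22 and 0.16. Medians were 0.29 and 0.14 for YAP and TAZ targets and -0.06 and 0.18 for ATF4 targets. Differences between list medians were not tested.

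**Figure D5:**
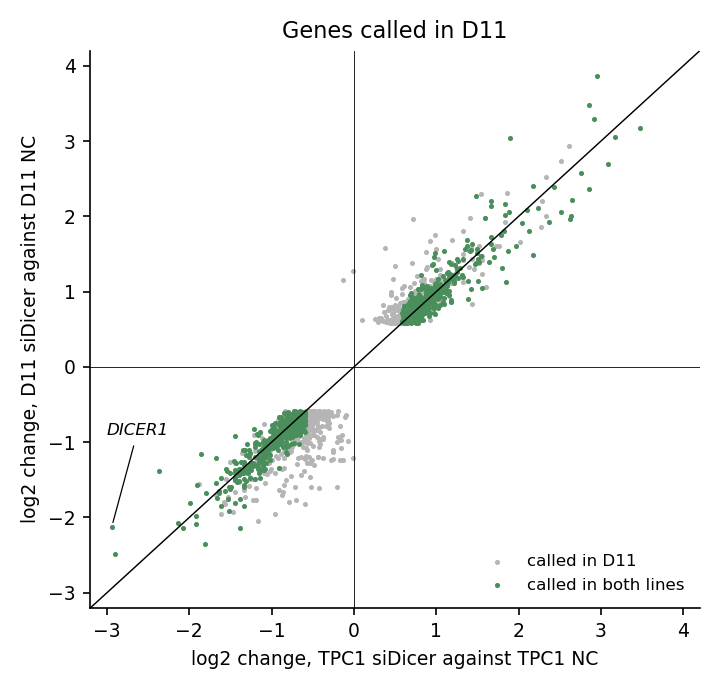
Log2 change of siDicer against NC in TPC1 (horizontal axis) and in D11 (vertical axis) for the genes called in D11 and tested in both lines, green where called in both and grey where called in D11, with the line of equal change. Points fall along the line on both sides of 0, and DICER1 lies to the left of it, at -2.94 in TPC1 and -2.12 in D11.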

How the data were processed

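The authors aligned reads to GRCh38 with STAR 2.5.3a, counted them per Ensembl gene with HTSeq 0.9.1 and deposited 1 table of 58302 genes and 18 columns. The values the authors deposited are a normalised score, reads scaled to a common library total and rounded up, and not read counts. The strand setting is not given in the sources used here. Column totals were 20010707 to 20018484. Dividing by the value of 1 read gave whole reads for 99.8% to 99.9% of the values in the 6 libraries, and hence the depths.

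Genes that reached 10 in 3 or more of the 6 libraries were fitted with limma 3.58.1 in R 4.3.3 (trend, log2(value + 1), Benjamini-Hochberg), with calls at an adjusted p below 0.05 and 1.5-fold. Changes of low genes are understated on this scale. The script was tested on simulated data. Replicate numbers were taken to pair the libraries, because deviations from the group means correlated at 0.526, 0.346 and 0.267 for the same number and at -0.378 to 0.093 for different numbers. The block stayed an alternative. The main fit and the leave-one-out fits do not use this pairing, and calls lost in the latter were not refitted with it.

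The members and the 34 gene lists were chosen with earlier results of these data known. Named genes were DICER1, the 10 calls each way with the largest change (a group mean of at least 100, no overlap), the 5 each way with the largest difference in level, the 3 members of each list with the smallest p, 9 cell cycle regulators, and 3 each way from the interaction. Other members are named where their list is described, after their values were seen. UTRs are those of GENCODE 44, and 30 miRNA families were searched. Values in the sensitivity part come from other scalings (median of ratios, upper quartile), filters, pseudocounts, control groups, voom on recovered reads and leaving out each library. Some genes and lists that these rules select are not reported here.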

Additional observations from a re-analysis of the deposited data

How the results depend on the processing

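The counts of 703 higher and 882 lower genes became 1518 and 1537 with NT alone as the control, 0 and 0 with groups from the titles, and 1417 and 1741 with no fold change minimum. Leaving out 1 library gave 425 to 710 higher and 405 to 976 lower genes, lowest without siDicer replicate 3. The 10 replication genes called lower became 6 with median of ratios scaling, 31 against NT and 25 against NT and NC together, and 2 to 28 with 1 library left out. The replicate block gave 904 higher and 1257 lower genes, kept all 1585 calls and added calls. It moved by over 1.5 times those list counts that are given with their blocked value and, of the other list counts given here, only that of endothelium and stroma, where TEK was added as lower. Signs turned for RPLP0 against NT (-0.14), for CCNE1 with median of ratios scaling (0.009), against NT (0.10), against NT and NC (0.034) and in leave-one-out fits (-0.25 to 0.18, with 0.071 without siDicer replicate 3), for CDKN2A in leave-one-out fits (-0.26 to 0.15, with 0.075 without siDicer replicate 1), for COL6A3 (0.41) and SBK1 (0.22) against NT, and for CD68 against NT (-0.33) and against NT and NC (-0.098). The causes were not tested. DICER1 stayed called in each of its alternatives (-2.34 to -1.41), and the interaction gave 0 genes in each of 21 settings. That fit was conservative, as given above, so these 0 counts do not show that the lines answered alike. Voom was not run for the interaction, since whole reads were not recovered in all TPC1 libraries. Depth limits low genes most: 3 reads are worth 3.57 to 5.19 units here.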

Other observations

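Of 26 genes of the ATF4 and unfolded protein lists, 4 were called higher (15.4% beside 3.93% of all genes) and 1 lower (3.8% beside 4.93%). With the replicate block 3 were called lower, beside 7.03% of all genes in that fit. SLC3A2, the partner chain of SLC7A5, read 5845, 4329 and 6529 in NC and 8702, 8516 and 11322 in siDicer, SESN2, SLC7A5 and DNAJB9 were higher as well (DNAJB9 not without NC replicate 3, limma adjusted p = 0.0722, or siDicer replicate 1, log2 0.58), and PHGDH, the first enzyme of serine synthesis, fell from 1845, 1950 and 1491 to 1267, 976 and 1092, a change of -0.57 and under the fold threshold without siDicer replicate 2. Of 27 lysosome and autophagy genes, 4 were called higher (14.8% beside 3.93%) and SQSTM1 lower. WIPI1, a phosphoinositide binding protein of autophagosomes, rose from 321, 322 and 310 to 566, 563 and 700 (log2 0.93, SE 0.12, limma adjusted p = 0.00163), and MCOLN1, a lysosomal calcium channel, from 429, 310 and 387 to 702, 594 and 705. CTSD, cathepsin D, had a limma adjusted p of 0.0022 with a log2 change of 0.52, under the fold threshold. Of 26 genes of cholesterol synthesis HSD17B7 was called lower (3.8% beside 4.93% of all genes). The call was kept in 1 of 6 fits that leave out a library (limma adjusted p 0.0617 to 0.148 in the others). Of the 26 changes 20 were below 0, with a median of -0.19 beside -0.047 for all genes. With the replicate block 5 were called lower, beside 7.03% of all genes in that fit (INSIG1 and STARD4 among the 5, limma adjusted p 0.218 and 0.0502 without the block).

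Of 20 tested tetraspanins and secreted epithelial genes, 5 were called lower (beside 4.93% of all genes) and CD82 higher. TSPAN13 read 131, 153 and 129 in NC and 57, 64 and 46 in siDicer, and CA2, a carbonic anhydrase, 72, 108 and 62 against 31, 28 and 20. CD82, a tetraspanin known as a suppressor of metastasis, rose from 2817, 1788 and 2265 to 5086, 3457 and 4264. Of 45 cytosolic ribosomal protein genes RPLP0 was the only call, and the median was -0.00. By kind of gene, 4.49% of 13106 protein-coding genes were called higher and 5.34% lower, beside 2.89% and 4.45% of 3079 long noncoding RNAs.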
